A study of Mus musculus with 12 samples.

Results

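The comparison set the hippocampus of 5xFAD mice against that of WT mice in the presence of an intact Kcnip3 gene, using the 3 libraries labelled 5xFAD and the 3 labelled WT, 6 of the 12 libraries of the series. All genes of the deposited count table were eligible. Of 55385 genes, 15905 had enough counts to be tested. Neither group carried the Kcnip3 deletion. The other 6 libraries, 3 labelled Kcnip3 KO and 3 labelled Kcnip3 KO-5xFAD, entered the model only to estimate the spread between libraries and to give a second comparison of mice with and without the transgenes. The RNA came from dissected hippocampus, from the hemisphere not taken for proteomics. The labels state no sex, strain or age and do not say that each library is a separate animal, so the p-values measure only the spread between these samples. The TruSeq mRNA kit was used. The study concerns KChIP3, the Kcnip3 product, in memory and synaptic potentiation, and this comparison asks which transcripts differ with the transgenes while Kcnip3 is intact.

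5xFAD mice express transgenes that include mutant human amyloid precursor protein under mouse Thy1 regulatory sequences, which act mainly in neurons. The resulting amyloid peptide deposits as plaques. Microglia, the resident macrophages of the brain, gather at plaques, sense lipids and amyloid through the receptor TREM2 and its signalling adaptor TYROBP, and take up a state marked by lysosomal proteases, lipid carriers and tetraspanins. Astrocytes around plaques become reactive and raise the filament protein GFAP. Human transgene transcripts were not measured separately here, and levels of mouse App say nothing certain about transgene expression, because reads of the human transcripts may or may not align to the mouse gene.

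Total counts ran from 7664407 to 11310714 over the 6 libraries, with 21673 to 23499 genes detected. The library labelled WT 3 went against its label in Thy1 and in microglial genes. Thy1 (ENSMUSG00000032011, chromosome 9, 44043384 to 44048579, GRCm38), the gene whose sequences drive the transgenes, was at 747, 887 and 2277 CPM (counts scaled to library size by TMM) in WT 1, WT 2 and WT 3, and at 2869.8, 4236 and 2949.5 CPM in 5xFAD. WT 3 was nearer to the 5xFAD libraries than to the other WT libraries, although the groups did not overlap. Among the other 6 libraries, the one labelled Kcnip3 KO-5xFAD 2 had Thy1 and microglial levels like those of libraries without transgenes, with Thy1 at 926 CPM and plaque-associated microglial genes at 0.12 log2 units relative to WT 1 and WT 2, against 1.68 and 1.36 in the other libraries of its group. Groups were kept as labelled, and main results are also given for 10 libraries, that is, less WT 3 and Kcnip3 KO-5xFAD 2. Because Thy1 and microglial levels decided which libraries were dropped, microglial differences in the 10-library fit are not independent of that choice on either background. Hippocampal markers were present in all 6 libraries. Summed CPM of the 9 dentate granule neuron markers ran from 281 to 293 in WT and 294 to 354 in 5xFAD, and no tested marker of CA1 or dentate neurons was called. Of 10 markers of CA2 and CA3 neurons 1 was called (10%, against 1.91% of all tested genes called higher). This was Grik4, which was higher in 5xFAD, and the list median was a log2 fold change of 0.31. Among 13 markers of cortical, striatal and thalamic neurons 1 was called (7.69%, against 1.62% of all tested genes called lower). This was the cortical layer gene Rorb, which was lower in 5xFAD. Choroid plexus markers differed within both groups, at 3986, 4452 and 245 summed CPM in WT and 7331, 351 and 10220.0 in 5xFAD. Markers of meningeal fibroblasts were lowest in 5xFAD 2, at 469 summed CPM against 905 to 2358 in the other 5 libraries. Markers of neutrophils and monocytes, and of T and NK cells, were near 0, with summed CPM of at most 7.02 in any of the 6 libraries, and Ly6g and Mmp8 were at 0 in every one. The 12 T and NK cell markers summed to 3.30, 2.34 and 2.61 CPM in WT against 6.10, 4.54 and 4.44 in 5xFAD. Only 1 of these 12 had enough counts to be tested, and it did not pass.

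In the model of all 12 libraries, 304 genes rose in 5xFAD (1.91% of those tested) and 258 fell (1.62%), at an adjusted p under 0.05 in edgeR's quasi-likelihood test. These shares are the background for the counts of called members in each list with 12 libraries. Scaled by library size only, in place of TMM, 202 rose and 265 fell. With 10 libraries 196 rose (1.22%) and 13 fell (0.0809%). Of the genes that rose, 129 were shared by both fits, which is 42.4% of the 304 and 65.8% of the 196. The genes that fell were mostly called with 12 libraries, since 12 were shared, 4.65% of the 258 and 92.3% of the 13. Every 5xFAD library lay above every WT library for 13.7% of all tested genes and below for 13.9%, so a lack of overlap by itself was common. In bulk tissue a higher level from more cells of a type and a higher level per cell cannot be told apart.

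Ucp2 (ENSMUSG00000033685, chromosome 7, 100493337 to 100502020, GRCm38), which encodes a mitochondrial uncoupling protein abundant in myeloid cells, was the call that depended least on single libraries. Its level was 38.7, 36.05 and 43.5 CPM in WT against 87.1, 96.7 and 108 CPM in 5xFAD. Every 5xFAD library was clear of every WT library, and WT 3 was close to WT 1 and WT 2. The log2 fold change was 1.30 ± 0.13 (adjusted p = 0.00158) with 12 libraries and 1.38 ± 0.12 with 10. Ucp2 was called in all 12 fits that left out 1 library and in all 12 other settings tried. It was the 1 gene called when WT 1, 5xFAD 2 or 5xFAD 3 was left out. Without WT 3 alone 12 genes rose and 1 fell, and without 5xFAD 1 the numbers were 939 and 1178. The 12 and the 1 were all among the genes called with 12 libraries. Genes called with 10 libraries only thus did not pass when WT 3 alone was left out, and passed with Kcnip3 KO-5xFAD 2 left out as well.

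After Ucp2, 9 genes were called in 9 of the 12 leave-one-out fits. The tetraspanin gene Cd9, raised in microglia around plaques, was at 45.5, 42.6 and 47.9 CPM in WT against 106, 125 and 123 CPM in 5xFAD. Npc2, the soluble carrier that moves cholesterol out of lysosomes, was at 89.01, 85.3 and 91.3 CPM in WT against 174, 204 and 197 CPM in 5xFAD. Both separated the groups with WT 3 among the WT libraries. Tmem176b, a membrane protein of antigen-presenting cells, rose by 0.86 ± 0.13 on the log2 scale, and Sh3bp2, an adaptor of Syk-dependent signalling, by 1.17 ± 0.18. Cebpa, a transcription factor of the myeloid lineage, rose by 1.14, Selplg, the P-selectin ligand of microglia, by 1.03, Clu, the extracellular chaperone clusterin, by 0.83, and Ftl1, the ferritin light chain, by 0.74. The 1 gene among the 9 that fell was Nap1l2, a neuronal histone chaperone gene on the X chromosome, at 45.5, 43.3 and 47.1 CPM in WT against 30.4, 25.7 and 24.8 CPM in 5xFAD (log2 fold change -0.75 ± 0.10, adjusted p = 0.0118).

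**Figure D1:**
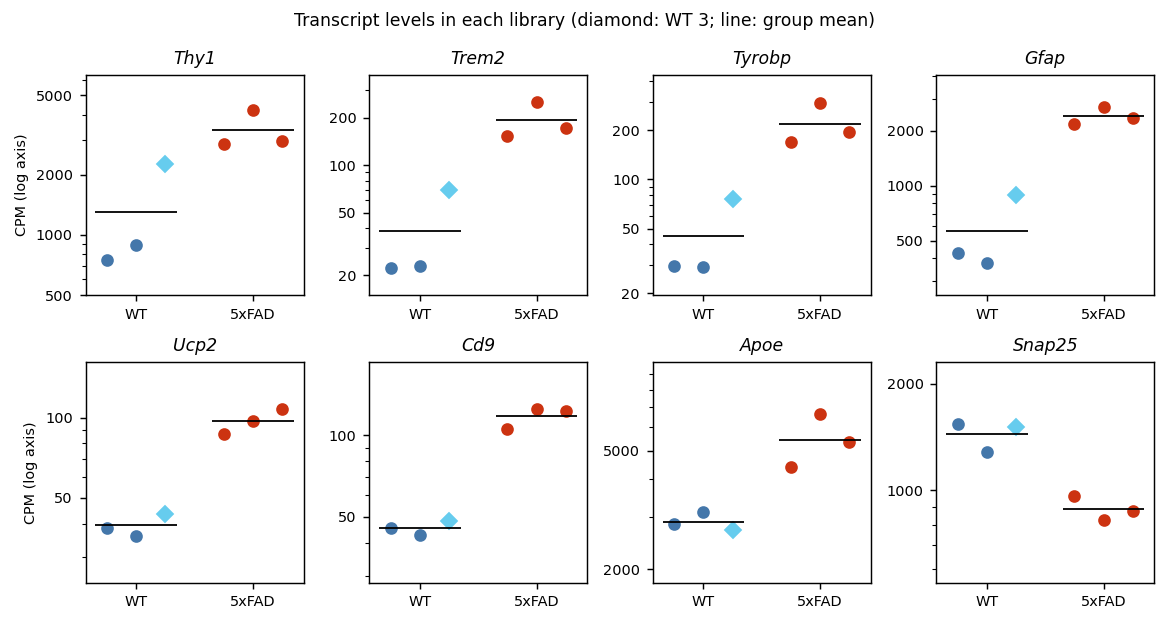
Level of 8 transcripts in each WT and 5xFAD library, in CPM on a log axis; each point is a library, the diamond is the library labelled WT 3 and the line is the group mean. WT 3 stood between the groups for Thy1, Trem2, Tyrobp and Gfap, at 70.1 CPM for Trem2 against 22.3 and 22.9 in the other WT libraries, and close to the other WT libraries for Ucp2, Cd9, Apoe and Snap25.

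The TREM2 pathway was taken in the order in which its proteins act. Of the 17 genes on this list, 17 had a positive log2 fold change with 12 libraries, with a median of 0.88 against 0.01 for all genes tested. At the receptor, Trem2 (ENSMUSG00000023992, chromosome 17, 48346401 to 48354147, GRCm38) was at 22.3, 22.9 and 70.1 CPM in WT against 154, 251 and 172 CPM in 5xFAD, and Tyrobp, the adaptor that carries its signal, at 29.6, 29.1 and 75.8 CPM in WT against 169.9, 293 and 195 in 5xFAD. WT 3 lay apart from WT 1 and WT 2 for both, and neither passed with 12 libraries (Trem2 2.32 ± 0.66, adjusted p = 0.0793; Tyrobp 2.29 ± 0.57, adjusted p = 0.0584). With 10 libraries both rose, Trem2 by 3.09 ± 0.22 and Tyrobp by 2.90 ± 0.22 on the log2 scale. Neither was among the 12 genes that rose without WT 3 alone.

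Among the enzymes and adaptors that act downstream of TREM2, 3 rose with 12 libraries. Plcg2, the phospholipase activated by the receptor, was at 5.32, 7.02 and 6.68 CPM in WT against 11.05, 12.2 and 12.9 CPM in 5xFAD (log2 fold change 0.92 ± 0.19, adjusted p = 0.0284). Vav1, a guanine nucleotide exchange factor of haematopoietic cells, was at 4.998, 3.93 and 6.58 CPM in WT against 11.7, 14.04 and 13.2 in 5xFAD (1.32 ± 0.28, adjusted p = 0.0319). Ptpn6, the phosphatase SHP-1 that opposes such signalling, was at 6.27, 5.74 and 9.82 CPM in WT against 19.7, 20.99 and 21.5 in 5xFAD (1.51 ± 0.33, adjusted p = 0.0351). None of these overlapped between the groups, and WT 3 was the highest WT library for Vav1 and Ptpn6. With 10 libraries the lipid phosphatase gene Inpp5d (1.07) and the adaptor gene Lat2 (1.67) rose as well, which made 7 of 17. The kinase genes Syk (0.44, adjusted p = 0.214) and Lyn (0.58, adjusted p = 0.143) had positive values and did not pass in either fit.

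Promoters of this list were searched for GAGGAAGT on either strand, a form of the site bound by PU.1, the product of Spi1 and the main transcription factor of the myeloid lineage. In the 250 bases before the start site, 3 of 14 members with a promoter in the RefSeq table (GRCm38.p6) held it, Vav1, Pik3cg and Inpp5d. The share was 2.66% of the 11785 tested genes with a promoter there. It was 5.31% of 226 such genes among those that rose with 12 libraries. Other lists held it less often, 0 of 14 homeostatic microglial, 1 of 26 plaque-associated and 1 of 14 Fc and related receptor genes. The match is a description of letters and not a mapped site. The Vav1 promoter (chr17:57278850-57279099, plus strand) is shown as the called member of the pathway with a match, written 5′ to 3′ along the gene, with the match in capitals. It begins 11 bases before the start.
Vav1: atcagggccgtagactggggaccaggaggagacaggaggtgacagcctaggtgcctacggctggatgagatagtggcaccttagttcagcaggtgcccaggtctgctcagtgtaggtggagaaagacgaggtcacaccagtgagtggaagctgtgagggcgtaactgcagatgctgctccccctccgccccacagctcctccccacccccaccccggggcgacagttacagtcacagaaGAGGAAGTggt

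Receptors that signal through the same immunoreceptor motifs formed a further list, of which 17 were tested. All 17 values were positive, with a median log2 fold change of 1.28, and 4 rose with 12 libraries. Fcer1g, the common signalling chain of Fc receptors, was at 7.98, 11.2 and 18.5 CPM in WT against 35.8, 45.2 and 40.2 CPM in 5xFAD. Fcgr3, an activating receptor for immunoglobulin G, was at 17.3, 17.01 and 32.5 CPM in WT against 61.6, 65.4 and 54.1 in 5xFAD. Treml2, a relative of Trem2 in the same gene cluster, rose by 2.82 ± 0.51 from levels under 1 CPM, and Milr1, an inhibitory receptor first described on mast cells, by 2.21 ± 0.50. With 10 libraries 9 rose and the median was 2.05. The beta-glucan receptor gene Clec7a was at 0.851, 0.532 and 5.12 CPM in WT against 15.6, 13.6 and 14.8 CPM in 5xFAD, with WT 3 above the other WT libraries. It passed with 10 libraries (4.38 ± 0.46) and not with 12 (2.75 ± 0.97, adjusted p = 0.124), and it was not among the 12 genes that rose without WT 3 alone.

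The 32 genes of plaque-associated microglia had the highest median of all lists described with 12 libraries, at 1.32, and 15 of them rose while none fell. Apoe, which carries lipid between brain cells, was at 2838, 3108 and 2701 CPM in WT against 4388, 6614 and 5332 CPM in 5xFAD. It had the largest rise in mean CPM of any called gene, and WT 3 was the lowest library. Lgals3, which encodes the lectin galectin-3, was at 2.02, 2.23 and 1.88 CPM in WT against 6.86, 7.37 and 7.33 CPM in 5xFAD (1.81 ± 0.30, adjusted p = 0.0177), with WT 3 again lowest. Csf1, a growth factor that sustains microglia, was at 26.8, 29.2 and 35.3 CPM in WT against 44.96, 49.8 and 62.9 in 5xFAD. When transcript length and GC content were corrected for, 7 members were called: Apoe, Lgals3, Cd9, the tetraspanin gene Cd63, the protease genes Ctsl and Ctsb, and the growth factor gene Igf1.

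With 10 libraries 22 of 32 rose, and the median was 1.58. Cst7, an inhibitor of cysteine proteases, was at 0, 0.319 and 26.5 CPM in WT against 68.96, 121 and 88.8 CPM in 5xFAD. Itgax, the integrin CD11c, was at 0.319, 0.319 and 7.42 CPM in WT against 24.1, 27.9 and 19.9 in 5xFAD. In both cases WT 1 and WT 2 were at 3 counts or fewer and WT 3 lay between the groups. Both passed with 10 libraries only, Cst7 with an adjusted p of 8.33e-06 against 0.173 and Itgax with 8.33e-06 against 0.122. The chemokine gene Ccl6 (1.75 and 3.44) and the lysozyme gene Lyz2 (1.95 and 2.53) also rose with 10 libraries only. Gpnmb, a lysosomal glycoprotein, was at 4.57, 4.47 and 7.73 CPM in WT against 24.3, 76.4 and 32.8 CPM in 5xFAD, called with 12 libraries (2.98 ± 0.62, adjusted p = 0.0404) and not with 10 (3.29 ± 0.61, adjusted p = 0.0501). For Spp1, which encodes osteopontin, the value was 0.63 (adjusted p = 0.31), and for Axl, a receptor for dying cells, 0.44 (adjusted p = 0.097).

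Genes of microglial identity were higher as well. Of 20 homeostatic microglial genes, 20 had positive values, 12 rose and none fell, with a median of 0.84. With 10 libraries 11 rose. Cst3, the secreted inhibitor cystatin C, was at 1688, 1830.3 and 1806 CPM in WT against 3007, 4087 and 3178 CPM in 5xFAD. Olfml3, a secreted microglial protein, was at 27.4, 27.4 and 33.8 CPM in WT against 63.4, 79.6 and 67.9 in 5xFAD (1.25 ± 0.21, adjusted p = 0.0216), and Rgs10, a regulator of G protein signalling, at 25.5, 25.8 and 30.6 CPM in WT against 39.8, 55.2 and 46.6 in 5xFAD. The groups were apart for all of these. The fractalkine receptor gene Cx3cr1 rose by 1.02 ± 0.21 and the growth factor receptor gene Csf1r by 1.02 ± 0.21. P2ry12, the purine receptor often used as the homeostatic marker, was at 13.6, 17.01 and 20.8 CPM in WT against 20.6, 19.1 and 19.01 CPM in 5xFAD (0.19 ± 0.22, adjusted p = 0.604), and the transcription factor gene Sall1 had a value of 0.12 (adjusted p = 0.874). Of 15 myeloid transcription factors 3 rose, with a list median of 0.43: Spi1 by 1.55 ± 0.27, Cebpa, and the interferon regulatory factor gene Irf8 by 1.74 ± 0.40. Markers of perivascular macrophages, which share many of these genes, all had negative values in the 7 tested and none passed. Their median was -0.48, with a summed CPM of 61.9, 38.6 and 38.02 in WT and 47.1, 28.1 and 34.7 in 5xFAD.

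**Figure D2:**
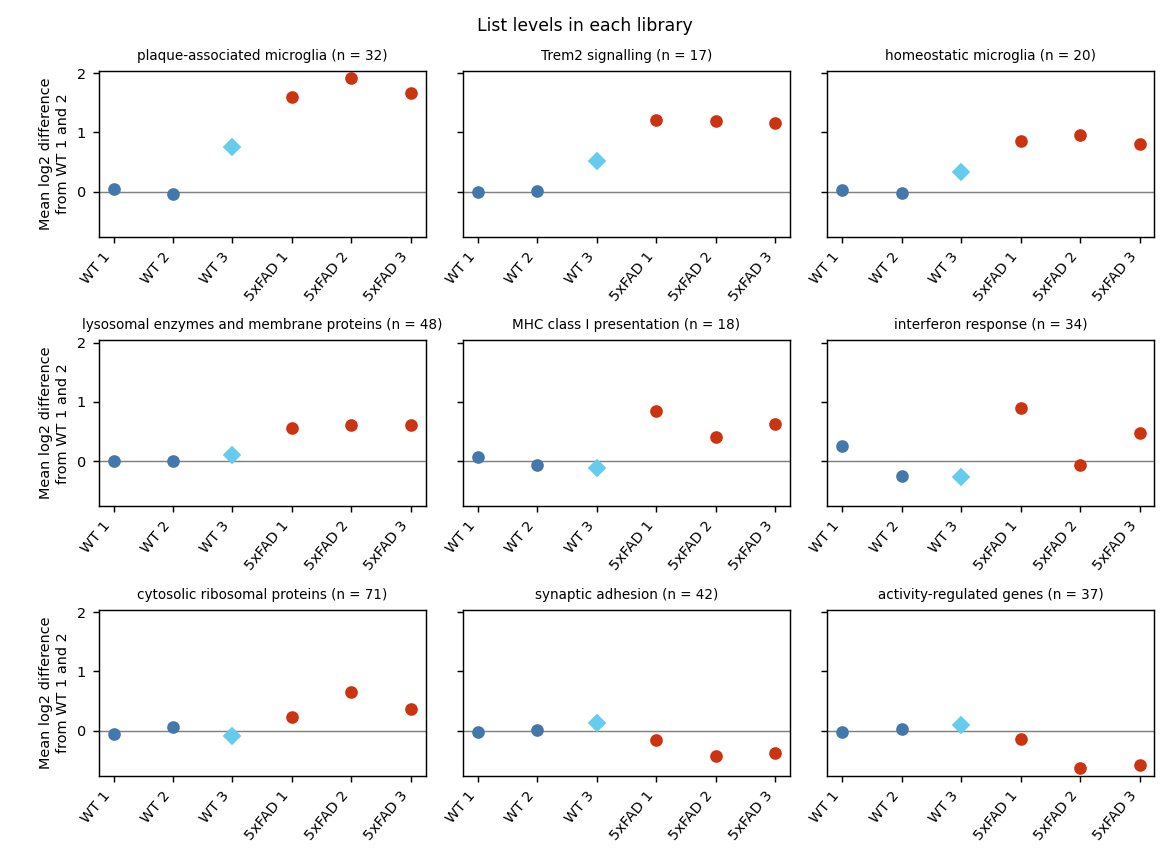
Mean log2 difference of 9 gene lists from the mean of WT 1 and WT 2, in each WT and 5xFAD library; each point is a library and the diamond is the library labelled WT 3. The microglial lists placed WT 3 between the groups, at 0.75 against 1.60 to 1.91 for plaque-associated genes. The lysosomal list also placed WT 3 above WT 1 and WT 2, at 0.10 against 0.55 to 0.62 in 5xFAD. For the MHC class I (-0.12) and ribosomal (-0.09) lists WT 3 was the lowest library.

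Lysosomal genes changed little between the 2 fits. Of 48 tested members, 19 rose with 12 libraries and 19 with 10, none fell in either, and the medians were 0.37 and 0.41. Of the 19 called with 12 libraries, 17 were also called with 10. Called members covered several enzyme classes. Among proteases, Ctsd was at 349, 368 and 545 CPM in WT against 1145, 1719 and 1307 CPM in 5xFAD, Ctsb at 599.5, 598 and 681 CPM in WT against 1009, 1028 and 973 in 5xFAD, and Ctsh at 18.3, 15.4 and 17.3 CPM in WT against 40.01, 41.3 and 35.2 in 5xFAD. Every 5xFAD library exceeded every WT library for these, and WT 3 was the highest WT library for Ctsd and Ctsb. In CPM, the median lysosomal gene had WT 3 at 13.7% of the way from WT 1 and WT 2 to 5xFAD. For plaque-associated genes that median was 13.5%. Among glycosidases, Gusb (beta-glucuronidase) rose by 1.15 ± 0.20, Naglu by 1.07 ± 0.20, Hexa by 0.99 ± 0.19, Glb1 by 0.61 ± 0.12 and Man2b1 by 0.86 ± 0.19. Grn, the gene of progranulin, rose by 1.15 ± 0.21. The carboxypeptidase gene Ctsa, whose product stabilises other lysosomal enzymes, was at 136, 153 and 154 CPM in WT against 234, 297 and 265 CPM in 5xFAD (0.84 ± 0.13, adjusted p = 0.0166).

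Other members did not pass in either fit. Psap, the precursor of the saposins, had a log2 fold change of 0.14 (adjusted p = 0.35), Lamp1, the main membrane glycoprotein, 0.35 (adjusted p = 0.0587), and Npc1, the membrane partner of NPC2, 0.13 (adjusted p = 0.501). Of 18 subunits of the vacuolar proton pump none rose and 1 fell (5.56%, against 1.62% of all tested genes). This was the accessory subunit gene Atp6ap2, which fell by 0.63, from 161, 137 and 173 CPM in WT to 117, 90.5 and 98.1 CPM in 5xFAD, with 12 libraries only. With length and GC content corrected for, 11 lysosomal genes were called, among them Npc2, Cd63, Ctsa, Ctsh, Gusb, Ctsl and Ctsb.

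Promoters of the lysosomal list were searched for TCACGTGA, a palindromic form of the CLEAR element that TFEB and its relatives bind, which contains the E-box core CACGTG. Among 38 members with a promoter in the table, 5 held it (13.2%). The share was 1.64% over all tested genes with a promoter there and 1.77% over such genes that rose. These were Ctsa, Ctsd, Cln3, Gla and Mcoln1. The first 3 rose with 12 libraries, Cln3, a membrane protein gene mutated in a childhood storage disease, by 0.49 ± 0.11 and with 12 libraries only. The alpha-galactosidase gene Gla (0.02, adjusted p = 0.957) and the channel gene Mcoln1 (0.06, adjusted p = 0.693) did not pass, so that the letters were found in members of both kinds. The 250 bases before the start of the 3 called members are shown (RefSeq, GRCm38.p6), 5′ to 3′ along each gene, with the match in capitals. The Ctsd window is chr7:142387828-142388077, minus strand, the Ctsa window chr2:164833523-164833772, plus strand and the Cln3 window chr7:126583237-126583486, minus strand. The matches begin 99, 13 and 122 bases before the start.
Ctsd: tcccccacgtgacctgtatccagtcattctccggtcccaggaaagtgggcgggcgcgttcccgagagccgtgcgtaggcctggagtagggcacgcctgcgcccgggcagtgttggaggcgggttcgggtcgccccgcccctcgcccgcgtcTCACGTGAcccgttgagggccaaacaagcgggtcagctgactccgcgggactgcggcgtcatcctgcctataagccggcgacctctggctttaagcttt
Ctsa: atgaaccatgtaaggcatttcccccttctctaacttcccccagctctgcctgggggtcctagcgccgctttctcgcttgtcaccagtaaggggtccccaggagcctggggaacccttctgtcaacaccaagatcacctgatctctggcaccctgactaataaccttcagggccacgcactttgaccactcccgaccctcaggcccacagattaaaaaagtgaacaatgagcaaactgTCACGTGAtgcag
Cln3: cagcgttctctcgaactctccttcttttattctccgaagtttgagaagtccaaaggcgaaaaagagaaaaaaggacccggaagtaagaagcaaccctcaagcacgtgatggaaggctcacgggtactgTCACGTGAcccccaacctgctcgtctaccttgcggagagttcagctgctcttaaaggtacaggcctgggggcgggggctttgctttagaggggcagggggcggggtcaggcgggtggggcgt

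Among complement genes, those of the C1q subunits, which act at the first step, rose. The 3 C1q subunit genes lie side by side on chromosome 4 and gave near-equal changes. C1qa was at 75.3, 68.7 and 126 CPM in WT against 285, 381 and 299 CPM in 5xFAD, C1qb at 80.6, 76.99 and 136 CPM in WT against 311, 388 and 296 in 5xFAD, and C1qc at 80.6, 80.3 and 119 CPM in WT against 269, 386 and 296 in 5xFAD. The groups did not overlap and WT 3 was the highest WT library in each case, and the log2 fold changes of 1.84, 1.76 and 1.76 became 2.16, 2.07 and 1.98 with 10 libraries. Of 22 complement genes tested 6 rose and none fell, with a median of 0.82. With 10 libraries 8 of 23 rose. The integrin chain gene Itgb2, part of complement receptor 3, rose by 1.52 ± 0.35 and its partner Itgam by 0.99 ± 0.24. C3, the central component, was at 3.72, 1.38 and 2.51 CPM in WT against 5.21, 3.83 and 7.33 CPM in 5xFAD and did not pass (1.12 ± 0.51, adjusted p = 0.188). C4b, whose reads may be shared with a near copy, rose with 10 libraries only (2.42 ± 0.22). Csmd1, a neuronal complement inhibitor gene, had a value of -0.61 (adjusted p = 0.0673).

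C1qc was the complement member, 1 of 13 with a promoter in the table, in which GAGGAAGT was found, here as its reverse complement. The window shown is chr4:136892915-136893164, minus strand (RefSeq, GRCm38.p6), 5′ to 3′ along the gene, with the match in capitals beginning 195 bases before the start.
C1qc: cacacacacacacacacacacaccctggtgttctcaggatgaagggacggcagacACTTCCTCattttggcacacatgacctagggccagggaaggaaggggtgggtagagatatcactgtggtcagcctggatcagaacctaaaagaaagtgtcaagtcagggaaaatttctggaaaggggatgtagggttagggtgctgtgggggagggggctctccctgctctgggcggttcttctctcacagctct

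Antigen presentation, innate sensing and interferon genes had positive medians with fewer calls. Among 18 genes of MHC class I presentation, all were positive and 3 rose: the immunoproteasome subunit gene Psmb8 (1.13 ± 0.28), the peptide transporter gene Tap2 (0.66 ± 0.16) and the heavy chain gene H2-K1. H2-K1 was at 71.8, 61.99 and 65.1 CPM in WT against 149, 105 and 121 CPM in 5xFAD, a gap between groups with WT 3 among the WT libraries, although reads of related H2 genes may be shared. None of 11 class II genes passed with 12 libraries, where the lysosomal protease gene Ctss, of that list, was at 92.6, 82.6 and 166 CPM in WT against 308, 382 and 319 in 5xFAD (adjusted p = 0.0538). Of 15 Toll-like receptor and coreceptor genes 3 rose, Unc93b1, a trafficking chaperone of these receptors, by 1.14 ± 0.24, and the coreceptor genes Cd180 and Ly86, which act as a pair, by 1.98 ± 0.44 and 1.73 ± 0.39. Of 18 cytokine and inflammasome genes 4 rose, the inflammasome adaptor gene Pycard by 1.60 ± 0.31, Gsdmd, the pore former gasdermin D, by 0.91 ± 0.23, Tgfb1 by 1.46 ± 0.34, and Csf1. With 10 libraries 4 of 18 MHC class I and 2 of 12 class II genes rose, against 1.22% of all tested genes. In that fit 5 of 15 Toll-like receptor and coreceptor genes and 5 of 18 cytokine and inflammasome genes rose.

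Of 34 interferon response genes 1 rose (2.94%, against 1.91% of all tested genes). This was Ifi27, at 55.3, 58.4 and 46.7 CPM in WT against 107, 98.7 and 117 CPM in 5xFAD (1.01 ± 0.18, adjusted p = 0.0233). The list had a median of 0.61 and its level differed among the 5xFAD libraries, at 0.90, -0.07 and 0.48 log2 units relative to WT 1 and WT 2, so that 5xFAD 2 lay among the WT libraries. Bst2, the antiviral membrane protein tetherin, was also lowest in 5xFAD 2 among the transgenic libraries, at 10.1, 9.996 and 7.103 CPM in WT against 24.6, 17.02 and 24.6 CPM in 5xFAD, and rose with 10 libraries only (1.14 ± 0.25, adjusted p = 0.0424). Among chemokines and their receptors 1 of 16 tested rose with 12 libraries (6.25%, against 1.91% of all tested genes), and 3 with 10. The 1 was Cxcl5, a chemokine for neutrophils, at 0.851, 0.319 and 0.731 CPM in WT against 1.91, 2.41 and 2.35 CPM in 5xFAD. Ccl3, a chemokine of activated microglia, was at 0.425, 0.532 and 2.61 CPM in WT against 6.73, 13.3 and 12.1 CPM in 5xFAD and rose with 10 libraries (adjusted p = 0.000146).

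Astrocyte genes gave few calls with 12 libraries. Gfap was at 427, 375 and 896 CPM in WT against 2189, 2719 and 2360.4 CPM in 5xFAD. WT 3 was above WT 1 and WT 2 and below every 5xFAD library, and Gfap did not pass with 12 libraries (2.10 ± 0.59, adjusted p = 0.0745) while it rose with 10 (2.59 ± 0.39, adjusted p = 0.0102). Vim, the filament protein vimentin, was at 88.5, 64.3 and 64.8 CPM in WT against 133, 117 and 136 in 5xFAD (0.83 ± 0.23, adjusted p = 0.0673), and Serpina3n, a secreted protease inhibitor with close paralogs, at 28.1, 35.5 and 54.9 CPM in WT against 138, 173 and 162 in 5xFAD (2.00 ± 0.52, adjusted p = 0.0654). Of 27 reactive astrocyte genes 1 rose with 12 libraries (3.7%, against 1.91% of all tested genes). This was Psmb8, which is not specific to astrocytes, and the list median was 0.53. With 10 libraries 4 of 28 rose, against 1.22% of all tested genes, and the median was 0.44. Of 20 astrocyte identity genes 1 rose (5%). This was Mlc1, a membrane protein of perivascular endfeet, at 245, 231 and 238 CPM in WT against 319, 405 and 345 CPM in 5xFAD (0.58 ± 0.10, adjusted p = 0.0216). The median of that list was 0.13. The water channel gene Aqp4 had a value of 0.37 (adjusted p = 0.225) and the glutamate transporter gene Slc1a2 of -0.04 (adjusted p = 0.82).

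Oligodendrocyte genes had a median of 0.49 with 21 of 22 values positive, and 1 rose (4.55%, against 1.91% of all tested genes). This was Trf, which encodes the iron carrier transferrin, at 356, 284 and 248 CPM in WT against 510.2, 515 and 706 CPM in 5xFAD. The summed CPM of the list was 7546, 5468 and 4377 in WT and 8539, 7257 and 11034 in 5xFAD. WT 3 was the lowest library and 5xFAD 3 the highest, with overlap between the groups. Choroid plexus, which also makes transferrin, was lowest in WT 3 and highest in 5xFAD 3 by its markers, and its part in the Trf result was not tested. With 10 libraries no gene of the list passed, and the median was 0.33. Of 25 genes of lipid transport and storage, Apoe, Clu and Npc2 rose, and none of 20 sterol synthesis genes passed, with a median of -0.05.

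**Figure D3:**
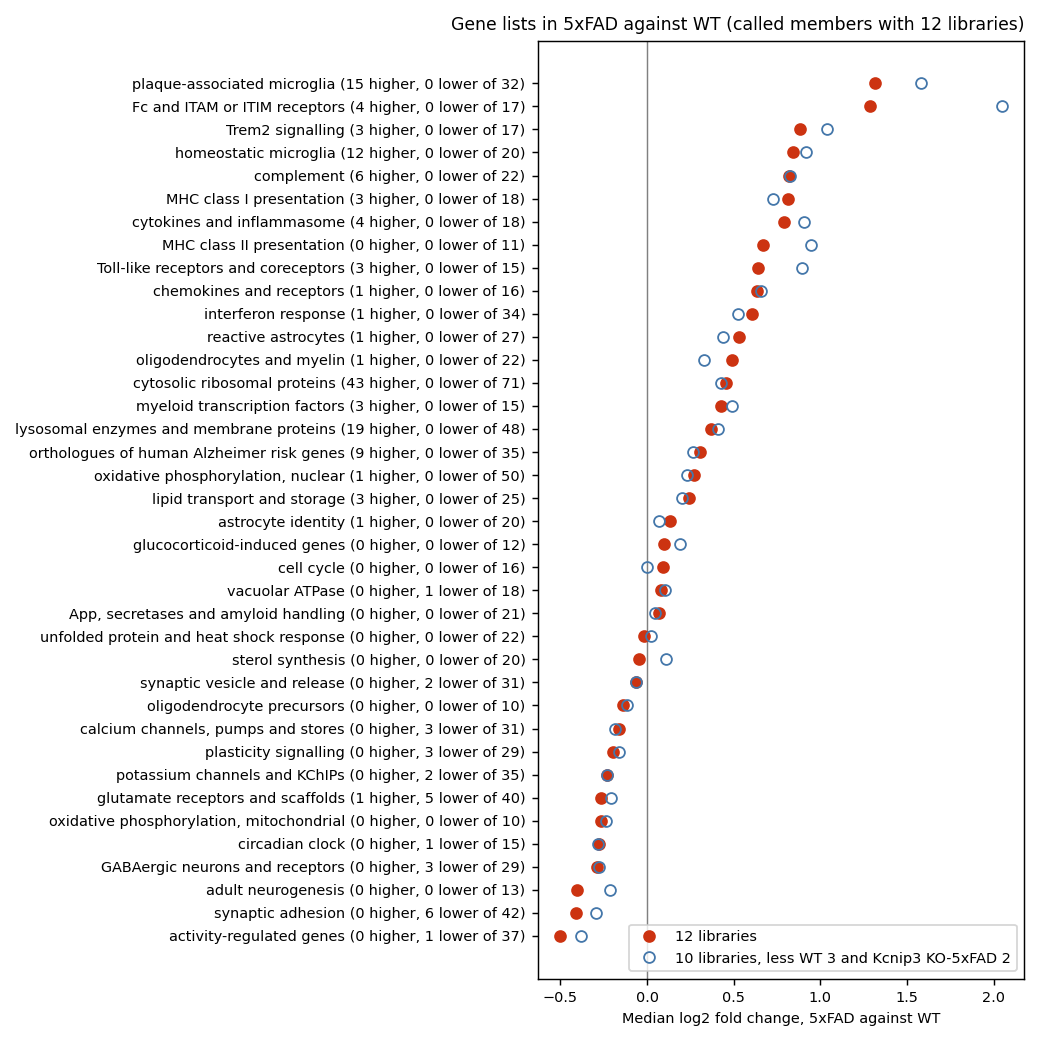
Median log2 fold change, 5xFAD against WT, of 38 gene lists with 12 libraries (filled) and 10 libraries (open), with the number of called members among those tested. Plaque-associated microglial genes stood at 1.32 and 1.58, lysosomal genes at 0.37 and 0.41, and activity-regulated genes lowest of those plotted, at -0.50 and -0.38.

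Mouse orthologues of genes at human Alzheimer risk loci were measured in 35 cases, and 9 rose while none fell. The 9 were Apoe, Clu, Treml2, Spi1, Ctsh, Ctsb, Plcg2, Grn and Abi3, an actin regulator gene of microglia that rose by 1.21 ± 0.26. All 9 were also called with 10 libraries, where Trem2 and Inpp5d joined them, and 7 of the 9 with the length and GC correction. Other risk genes did not pass with 12 libraries. Bin1, a membrane-bending protein gene, had a value of 0.31 (adjusted p = 0.0666), Picalm, an adaptor of endocytosis, -0.38 (adjusted p = 0.139), Sorl1, a sorting receptor of APP, -0.08 (adjusted p = 0.578), and Mef2c, a transcription factor of neurons and microglia, -1.21 (adjusted p = 0.0961). The median of the list was 0.31.

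No gene of APP, its secretases or amyloid handling passed among 21 tested, and the median was 0.07. App was at 1186, 1293 and 1259.5 CPM in WT against 1133, 964 and 1084 CPM in 5xFAD, lower in every 5xFAD library (-0.23 ± 0.10, adjusted p = 0.154). With length and GC corrected for, its log2 fold change was -0.01 (adjusted p = 0.973, edgeR). Bace1, the beta-secretase gene, had a value of -0.15 (adjusted p = 0.405), and the amyloid-degrading peptidase genes Mme and Ide had values of -0.98 (adjusted p = 0.143) and 0.09 (adjusted p = 0.631).

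Kcnip3 itself, which encodes the calcium sensor KChIP3, was at 159.9, 158 and 162 CPM in WT against 139, 156 and 138 CPM in 5xFAD. It did not pass (-0.15 ± 0.19, adjusted p = 0.653). Its partners in the Kv4 channel complex had values of -0.45 for the pore gene Kcnd2 (adjusted p = 0.0802), -0.42 for Kcnip4 (adjusted p = 0.0953) and 0.42 for Kcnip2 (adjusted p = 0.145). Of 35 potassium channel and KChIP genes 2 fell (5.71%, against 1.62% of all tested genes). These were the ERG-type channel gene Kcnh7, at 20.3, 19.1 and 26.01 CPM in WT against 13.8, 9.22 and 11.1 CPM in 5xFAD, and the Kv3 channel gene Kcnc2, at 78.8, 68.9 and 71.3 CPM in WT against 57.7, 51.3 and 56.7 in 5xFAD. Neither was called with 10 libraries. Of 31 genes for calcium channels, pumps and stores 3 fell (9.68%, against 1.62% of all tested genes). These were the channel subunit genes Cacna2d1 (-0.88 ± 0.19) and Cacnb4 and the pump gene Atp2a2 (-0.45 ± 0.11). Cacnb4 was at 56.5, 45.7 and 53.4 CPM in WT against 37.7, 28.6 and 28.6 CPM in 5xFAD and was called in both fits. With length and GC corrected for, neither list had a called member. The median of the potassium channel list was -0.23 without the correction and -0.06 with it, and that of the calcium list -0.16 and -0.09.

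Synaptic genes had negative medians, and the calls depended on the set of libraries. Snap25 (ENSMUSG00000027273, chromosome 2, 136713453 to 136782428, GRCm38), a SNARE protein of vesicle fusion, was at 1536, 1284 and 1513 CPM in WT against 965, 823 and 875 CPM in 5xFAD, with the groups apart, and fell in both fits (-0.70 ± 0.11 and -0.67 ± 0.13). The other called gene of 31 on the vesicle list was Cadps, a priming factor of dense-core vesicles (-0.52 ± 0.10). The 2 made 6.45% of the list, against 1.62% of all tested genes that fell. Summed over the vesicle list, CPM was 17922, 20680.0 and 19542 in WT and 17555, 21238 and 18436 in 5xFAD, with overlap, and its median was -0.06.

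Synaptic adhesion genes had a median of -0.41, with 6 called lower of 42, and 22 of the 42 were below every WT library in each 5xFAD library, against 13.9% of all tested genes. Slitrk1, a postsynaptic organiser, was at 45.3, 46.9 and 47.00 CPM in WT against 32.5, 32.8 and 32.96 CPM in 5xFAD, with little spread in either group. Nrxn3, a presynaptic neurexin, was at 74.7, 62.1 and 79.7 CPM in WT against 54.4, 38.1 and 40.2 in 5xFAD and Nlgn1, a neuroligin, at 28.3, 25.8 and 34.99 CPM in WT against 20.3, 18.2 and 17.7 in 5xFAD, 5xFAD 1 being the highest 5xFAD library for both. The other called members were Lgi2 (-0.51), Cbln4 (-1.17) and Il1rapl1 (-1.61). With 10 libraries none of the 42 was called, with a median of -0.30, and with length and GC corrected for 1 was. The median length of these transcripts was 6441 nucleotides against 3048 for all genes tested.

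Receptor genes of both transmitters were called lower in part. Of 40 glutamate receptor and scaffold genes 5 fell (12.5%) and 1 rose (2.5%), against 1.62% and 1.91% of all tested genes, with a median of -0.27. The AMPA receptor subunit gene Gria4 was at 69.4, 69.01 and 71.8 CPM in WT against 50.8, 33.2 and 39.8 CPM in 5xFAD, the auxiliary subunit gene Shisa9 at 34.1, 40.3 and 43.1 CPM in WT against 25.3, 21.4 and 26.4 in 5xFAD, and the metabotropic receptor gene Grm7 at 33.2, 30.2 and 36.5 CPM in WT against 25.02, 20.1 and 23.2 in 5xFAD. The gene that rose, Grik4, a kainate receptor subunit of CA3 neurons, was at 48.4, 50.5 and 40.3 CPM in WT against 59.7, 86.5 and 73.2 in 5xFAD. Of 29 GABAergic genes 3 fell (10.3%, against 1.62% of all tested genes), among them the neuregulin receptor gene Erbb4 (-0.74 ± 0.19). The synthetic enzyme genes Gad1 and Gad2 had values of -0.54 (adjusted p = 0.104) and -0.32 (adjusted p = 0.11), and the peptide genes Sst and Npy of 0.13 (adjusted p = 0.768) and -0.06 (adjusted p = 0.947). Among 29 genes of plasticity signalling 3 fell (10.3%, against 1.62% of all tested genes), with a median of -0.19. These were the phospholipase gene Plcb1 (-0.65 ± 0.14), the transcription factor gene Creb1 (-0.64 ± 0.17) and Prkacb, a catalytic subunit of protein kinase A (-0.63 ± 0.15). The kinase gene Camk2a was at 2678, 3094 and 2976 CPM in WT against 3104, 4309 and 3545 CPM in 5xFAD (0.33, adjusted p = 0.224). None of the genes on these 3 lists was called with 10 libraries. With length and GC corrected for none was called either. The medians there were -0.07 for glutamate receptor and scaffold genes, -0.29 for GABAergic genes and -0.06 for plasticity genes. Median transcript lengths of the 3 lists were 5528, 4041 and 4766 nucleotides, against 3048 for all genes tested.

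Activity-regulated genes had a median of -0.50 over 37 tested, with 9 positive values, and 1 fell (2.7%, against 1.62% of all tested genes). Dusp1, a phosphatase that switches off MAP kinases, was at 54.1, 68.7 and 44.1 CPM in WT against 34.5, 16.9 and 20.8 CPM in 5xFAD (-1.21 ± 0.26, adjusted p = 0.0358). The groups were apart, with 5xFAD 1 nearest to WT. Fos, an immediate early transcription factor, was at 49.02, 54.2 and 36.5 CPM in WT against 25.3, 7.66 and 11.2 CPM in 5xFAD (-1.66 ± 0.41, adjusted p = 0.0525), and Egr1, another, at 224, 206 and 209 CPM in WT against 149, 62.8 and 67.9 in 5xFAD (-1.19 ± 0.32, adjusted p = 0.0654). Arc, a regulator of AMPA receptors, had a value of -0.67 (adjusted p = 0.424) and Bdnf of -0.34 (adjusted p = 0.597). The list stood at -0.15, -0.63 and -0.59 log2 units in 5xFAD 1, 5xFAD 2 and 5xFAD 3 relative to WT 1 and WT 2, so 5xFAD 1 contributed least. The libraries labelled Kcnip3 KO, which carry no transgenes, stood at -0.48, -0.85 and 0.05 on the same scale, so that 2 of the 3 were also low, and Dusp1 was at 27.6, 19.8 and 25.1 CPM there, within the range of 5xFAD. With 10 libraries none passed and the median was -0.38. In the same fit the median was 0.02 for Kcnip3 KO-5xFAD against Kcnip3 KO, a comparison made from those lower levels, where Fos had a value of 1.21 (adjusted p = 0.561).

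The cAMP response element TGACGTCA is a palindrome bound by CREB. In the 250 bases before the start, 3 of 28 activity-regulated genes with a promoter in the table held it, Dusp1, Btg2 and Maff. The share was 2.97% over all tested genes with a promoter there. Btg2 had a log2 fold change of -1.08 (adjusted p = 0.0776) and Maff of 0.42 (adjusted p = 0.434). The Dusp1 promoter, that of the called member, is chr17:26508473-26508722, minus strand (RefSeq, GRCm38.p6), shown 5′ to 3′ along the gene with the match in capitals, which begins 143 bases before the start.
Dusp1: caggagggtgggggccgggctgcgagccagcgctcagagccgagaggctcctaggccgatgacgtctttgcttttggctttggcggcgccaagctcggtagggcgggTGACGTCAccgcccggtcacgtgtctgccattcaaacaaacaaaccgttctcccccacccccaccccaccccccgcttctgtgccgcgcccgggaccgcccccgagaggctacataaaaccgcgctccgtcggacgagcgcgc

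Cytosolic ribosomal protein genes gave the most calls of any list and small changes. Of 71 members 43 rose with 12 libraries, all 71 values were positive, the median was 0.46 and the range 0.08 to 0.67. Rps9 was at 293, 282 and 284 CPM in WT against 391, 459 and 414 CPM in 5xFAD, and Fau, which encodes a fusion of a ubiquitin-like protein with a ribosomal protein, at 205, 231 and 209 CPM in WT against 299.7, 381 and 310.4 in 5xFAD. In every 5xFAD library 69 of the 71 lay above every WT library, against 13.7% of all tested genes, and 5xFAD 2 was highest, at 0.65 log2 units on the list against 0.23 and 0.37. With 10 libraries Rps9 and Fau were called and the median was 0.43. No member was called without WT 1, WT 3, 5xFAD 2 or 5xFAD 3, 23 without WT 2, 17 without Kcnip3 KO-5xFAD 3, 28 without Kcnip3 KO-5xFAD 1 and 68 without 5xFAD 1. Many processed pseudogenes share these reads, so single members are uncertain.

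Fold changes differed with transcript length. With the tested genes in 5 bins of equal size by length, the shortest bin, up to 1676 nucleotides, had a median log2 fold change of 0.21, with 146 genes called higher and 2 lower. In the longest bin, from 5038 nucleotides, it was -0.18, with 9 called higher and 114 lower. The median difference between the shortest and the longest bin was -0.12, 0.04 and -0.24 log2 units in WT and 0.03, 0.53 and 0.26 in 5xFAD, so that 5xFAD 1 lay among the WT libraries and 5xFAD 2 stood farthest out. Genes that rose had a median length of 1757 nucleotides and 54.0% GC, genes that fell 4690.5 nucleotides and 43.4%, and all tested genes 3048 nucleotides and 50.3%. When the fit included length and GC content, 77 genes rose and 38 fell. In that fit 5 ribosomal genes were called and the list median was 0.25. The median of plaque-associated genes was 1.34 there, with 7 called, and synaptic adhesion genes had a median of -0.18. With the correction 5 homeostatic microglial genes were called in place of 12, and 1 complement gene in place of 6. On the lists of Fc and related receptors, TREM2 signalling and cytokines 1 member each was called, in place of 4, 3 and 4. No MHC class I, Toll-like receptor or interferon response gene was called, in place of 3, 3 and 1. Medians were 0.79 for homeostatic, 0.74 for complement and 0.62 for MHC class I genes, against 0.84, 0.82 and 0.81. Whether RNA quality differed between the libraries was not tested.

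**Figure D4:**
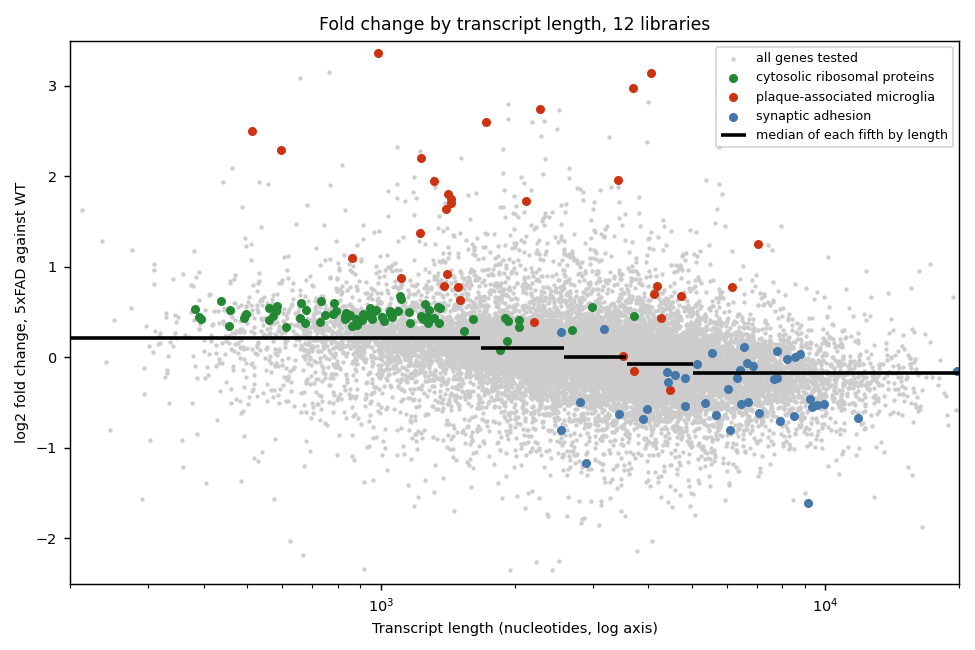
Log2 fold change, 5xFAD against WT with 12 libraries, against transcript length in nucleotides on a log axis; each point is a gene, 78 genes fall outside the axes, and black bars are medians of 5 bins by length. The bars descend from 0.21 to -0.18, with ribosomal protein genes at the short end and synaptic adhesion genes at the long end and most plaque-associated microglial genes above the bars.

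The same contrast could be made on the knockout background, Kcnip3 KO-5xFAD against Kcnip3 KO, which shares no library with 5xFAD against WT. The level of Kcnip3 transcripts was 71.4, 63.4 and 125 CPM over the Kcnip3 KO libraries and 84.9, 68.7 and 70.1 CPM over those with the transgenes as well, so the library labelled Kcnip3 KO 3 was nearer to the WT libraries than the other knockout libraries were. With 12 libraries no gene was called there in edgeR, with 1657 at an unadjusted p under 0.05 (10.4% of those tested). DESeq2 called 111 higher and 24 lower. With 10 libraries 208 rose (1.29%) and 1 fell (0.00622%), with 8.4% of genes at an unadjusted p under 0.05. Of these 208, 144 were among the 196 that rose in 5xFAD against WT in the same fit, 73.5% of the 196 and 69.2% of the 208. Among genes that fell, none was shared between the 13 and the 1.

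Of the 22 plaque-associated genes called in 5xFAD against WT with 10 libraries, 19 were called on the knockout background too, and of 19 lysosomal genes 16 were, whereas with Kcnip3 KO-5xFAD 2 kept, in the 12-library fit, none was called on that background. Cd9 had log2 fold changes of 1.42 with intact Kcnip3 and 1.13 without it, Trem2 of 3.09 and 2.74, Ctsd of 1.95 and 1.58, C1qa of 2.16 and 1.82, and Ucp2 of 1.38 and 0.77. Snap25 had a value of -0.24 on the knockout background (adjusted p = 0.718) and Apoe of 0.66 (adjusted p = 0.0929). Interferon response genes had medians of 0.52 and 1.64, with 2 and 13 of 34 called, and MHC class I genes had 4 and 11 of 18 called. The knockout comparison was made from lower levels. Relative to WT 1 and WT 2, the Kcnip3 KO libraries stood at -0.45, -0.59 and -0.65 log2 units for interferon genes and -0.45, -0.48 and -0.43 for MHC class I. Kcnip3 KO-5xFAD 1 and 3 stood at 1.39 and 0.46 for interferon genes, against 0.90, -0.07 and 0.48 in 5xFAD. For MHC class I they stood at 0.77 and 0.43, against 0.84, 0.41 and 0.63. Mx1, an antiviral GTPase, had values of 0.16 and 4.57.

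The test of whether the transgene effect differed with Kcnip3 loss called no gene with 12 libraries in edgeR, with 836 at an unadjusted p under 0.05 (5.26% of those tested), and DESeq2 called 6. With 10 libraries it called 1 (0.00622%; 3.45% at an unadjusted p under 0.05), Fabp7, so no interferon or MHC gene passed the test of the difference. Fabp7, a fatty acid carrier of astrocytes and progenitors, was at 36.4, 33.1 and 37.9 CPM in WT, 22.6, 31.6 and 25.8 in 5xFAD, 18.1, 27.8 and 21.8 in Kcnip3 KO and 73.8, 38.6 and 62.9 in Kcnip3 KO-5xFAD. Across all 16076 genes of the 10-library fit, the log2 fold changes of both comparisons had a Pearson's r of 0.43 and a Spearman's rho of 0.36. These describe genes, which are not independent replicates.

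**Figure D5:**
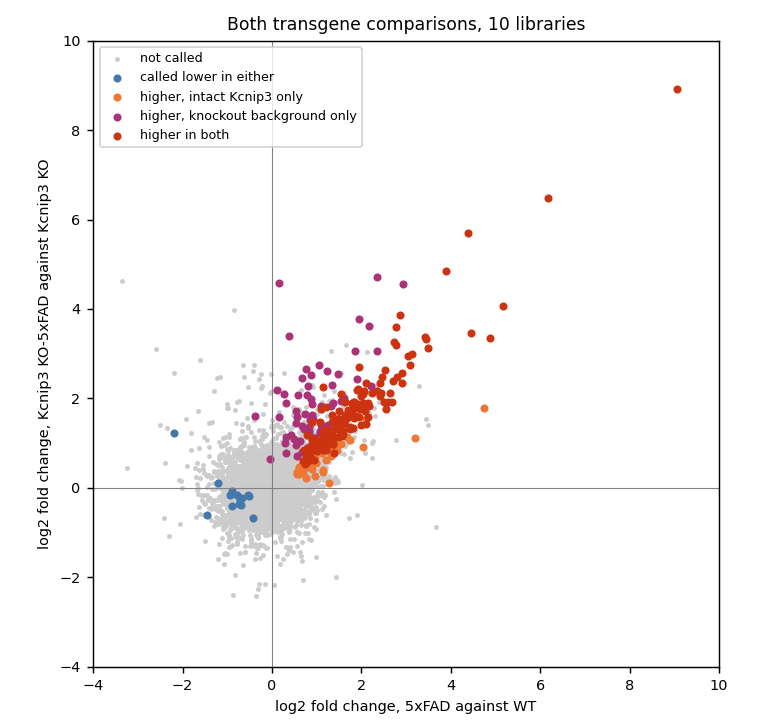
Log2 fold change on the knockout background against that with intact Kcnip3, 10 libraries; each point is a gene, coloured by its call, and 3 genes fall outside the axes. The 144 genes called higher in both lie to the upper right, and the 13 genes called lower with intact Kcnip3 have a median of -0.19 on the knockout background.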

How the data were processed

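RNA-seq libraries of 12 hippocampal samples were read from 2 tables of the whole series. Per the submitters' processing notes, reads were checked with FastQC 0.11.9, aligned with HISAT2 2.1.0 to mm10 and counted with featureCounts, and R 4.2.1 and edgeR 3.38.4 are named there. The strand setting, like the annotation release, is not given in the sources used here, and reads of overlapping or antisense genes cannot be told apart. The authors deposited raw counts per Ensembl gene, used for all main results, and log2 TPM values, used for 1 alternative. GENCODE M21 (GRCm38, the same build as mm10) gave symbols for 55144 of 55385 genes.

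Counts were filtered with filterByExpr (minimum count 10), scaled by TMM and fitted with edgeR 4.0.16 in R 4.3.3 (robust quasi-likelihood, 4 genotype groups, 12 libraries, common biological coefficient of variation 0.1436). P-values were adjusted by Benjamini-Hochberg over 15905 genes, with calls at an adjusted p under 0.05. The standard error given after ± is the log2 fold change divided by the square root of F. Values in CPM are TMM-scaled, and 3 counts correspond to 0.272 to 0.425 CPM. The lists per library use log2(CPM + 0.5). A second fit was made of 10 libraries, less WT 3 and Kcnip3 KO-5xFAD 2, and tested 16076 genes. DESeq2 1.42.0, limma 3.58.1 and a length and GC correction with mgcv 1.9.3 were alternatives, as were other scalings, filters, a replicate block and leaving out each library. The scripts were tested on simulated data.

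Members and gene lists were chosen with earlier results of these data known. The genes named are 8 checks of the model, called genes with the largest changes or smallest p-values, and called members of each list. Other list members were chosen after their values were seen, to describe both called and uncalled genes. Promoters are the 250 bases before the start in RefSeq (GRCm38.p6), searched on either strand. No library pair agreed within sampling noise. Some members of the lists are not reported here by name.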

Additional observations from a re-analysis of the deposited data

Results flagged for a closer look

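In edgeR's fit of 10 libraries, Fabp7 was the 1 gene whose change with the transgenes differed between backgrounds by a test of the difference itself. Other settings called other numbers of genes, among them 6 in DESeq2 and 0 in edgeR with 12 libraries. The log2 fold change was -0.38 with intact Kcnip3 and 1.60 on the knockout background with 10 libraries, a difference of 1.99 (adjusted p = 0.0417, edgeR). The libraries labelled Kcnip3 KO-5xFAD were all above those labelled 5xFAD, and the one left out of this fit, Kcnip3 KO-5xFAD 2, was the lowest of its group. With all 12 libraries the difference was 1.80 and did not pass (adjusted p = 0.43).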

How the results depend on the processing

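With 3 libraries a group the counts of calls moved widely, while no named called gene changed direction in a setting that tested it. For 5xFAD against WT, 202 genes rose with library size only, 1136 without a filter on low counts, 667 in DESeq2, 6 in limma on log2 TPM, 196 with 10 libraries, 176 with only WT and 5xFAD libraries less WT 3, and 77 with the length and GC correction. Leaving out 1 library gave 1 to 939. Genes lower numbered 995 without a filter, 764 in DESeq2, 2 in limma on log2 TPM, 119 with only the 6 libraries, 13 with 10, 8 with only WT and 5xFAD less WT 3, 38 with the correction, and 0 to 1178 when 1 library was left out. On the knockout background the numbers higher were 419 without a filter, 111 in DESeq2, 208 with 10 libraries and 0 to 190 less 1 library, the highest without Kcnip3 KO-5xFAD 2. Those lower were 302, 24, 1 and 0 to 3. The interaction called 272 without a filter, 6 in DESeq2, 1 with 10 libraries and 0 to 4 less 1 library. The causes were not tested.

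Of 118 named called genes, 66 kept their call with 10 libraries, 40 with the length and GC correction, 11 without WT 3 alone, 8 on log2 TPM, and 1, Ucp2, without WT 1, 5xFAD 2 or 5xFAD 3. With 1 WT library left out, the fit assumes that the remaining ones vary like the other groups.

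The deviations of same-numbered WT and 5xFAD libraries from their group means correlated at 0.175, 0.154 and -0.320, so the numbers were not taken to pair the samples. A fit with the replicate block called 632 genes higher, 602 lower and 1 in the interaction. On log2 TPM the median of all tested genes was -0.13, against 0.01 with TMM and -0.06 with library size only, and list medians moved with it, so that those near 0 (amyloid handling, vacuolar proton pump) turned negative. Depth limits genes near 3 counts in a library.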

Other observations

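Several genes that handle iron or other metals were called, in both directions. Ftl1 was at 250.1, 279 and 276 CPM in WT against 421, 500.1 and 425 CPM in 5xFAD, and Fth1, the ferritin heavy chain, at 2200.0, 2346 and 1946 CPM in WT against 2932, 4262 and 3961 in 5xFAD (log2 fold change 0.78 ± 0.16, adjusted p = 0.0314 in edgeR's test with 12 libraries). Slc11a1, a metal transporter of phagosomes, was at 3.51, 3.19 and 7.31 CPM in WT against 14.9, 23.7 and 19.01 CPM in 5xFAD (2.03 ± 0.48, adjusted p = 0.0461). The groups were apart for all 3, and WT 3 was the highest WT library for Slc11a1. Tfrc, the transferrin receptor gene, fell from 51.4, 42.7 and 57.7 CPM in WT to 38.2, 26.1 and 36.4 CPM in 5xFAD (adjusted p = 0.045), and Ireb2, which encodes an iron regulatory protein, from 27.1, 20.5 and 28.1 to 16.9, 14.2 and 14.7 CPM (adjusted p = 0.0269). With 10 libraries Ftl1 and Slc11a1 were still called, and Fth1, Tfrc and Ireb2 were not (adjusted p = 0.103, 0.198 and 0.0954). These genes were chosen after their values were seen.

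Of the 12 genes that fell in both fits, Snap25, Cacnb4 and Nap1l2 are given above. Hook1, a linker of cargo to dynein, was at 33.8, 29.5 and 39.3 CPM in WT against 20.2, 15.3 and 15.8 CPM in 5xFAD. Fgf12, a modulator of sodium channels, was at 68.1, 47.7 and 77.8 CPM in WT against 39.5, 30.9 and 29.97 in 5xFAD, and Glrb, the glycine receptor beta subunit, at 70.2, 55.8 and 78.2 CPM in WT against 45.3, 25.9 and 31.1 in 5xFAD. Bche, which encodes butyrylcholinesterase, was at 4.15, 4.15 and 3.86 CPM in WT against 2.16, 1.56 and 1.63 in 5xFAD. All 5xFAD libraries were below all WT libraries for these. On the knockout background the log2 fold changes were -0.07 for Hook1 (adjusted p = 0.955), -0.17 for Fgf12 (adjusted p = 0.864), -0.40 for Glrb (adjusted p = 0.627) and 0.11 for Bche (adjusted p = 0.955), with 10 libraries. Of 510 tested genes on the X chromosome 26 fell and 6 rose, 6.27% called in either direction. On the autosomes 2.08% to 4.94% were called, and over all tested genes 1.91% rose and 1.62% fell. The X chromosome was singled out after these values were seen.

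Gm12751, a gene model that may share reads with other loci, was at 0.106, 0 and 0 CPM in WT against 3.94, 3.69 and 3.71 CPM in 5xFAD. The Kcnip3 KO libraries held 0.105, 2.78 and 0.345 CPM and the Kcnip3 KO-5xFAD libraries 0, 0.111 and 0 CPM, so that it was high in each 5xFAD library and in 1 library labelled Kcnip3 KO and at most 1 count in any other library with transgenes.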
